A study of Homo sapiens with 12 samples.

Results

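SKBR3 cells treated with GSK126 and lapatinib together were compared with SKBR3 cells treated with the solvent DMSO, gene by gene, in RNA sequenced from whole cultures. SKBR3 is an established breast cancer line that carries extra copies of ERBB2, the gene for the receptor HER2. The comparison was set by the treatment labels, and it uses the 3 combination and the 3 DMSO libraries of the 12 in the series, across all 22170 genes of the deposited table. The combination cultures received GSK126 at 5 µM for 7 days and lapatinib at 100 nM for the last 24 hours, and the control cultures received DMSO. The other 6 libraries are 3 with lapatinib alone at 100 nM for 24 hours and 3 with GSK126 alone at 5 µM for 7 days. The labels number the libraries of a group from 1 to 3 without saying that they came from separate cultures, so every p-value measures the spread between libraries, which may be technical. All results are from 1 cell line.

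Lapatinib blocks the kinase activity of EGFR and HER2, receptors that drive growth through the ERK cascade and through PI3K and AKT. When AKT is inactive, FOXO transcription factors enter the nucleus and switch on their targets, while loss of cyclin-dependent kinase activity lets the RB proteins silence the E2F targets needed for DNA replication. GSK126 blocks EZH2, the enzyme of Polycomb repressive complex PRC2, which methylates histone H3 and keeps developmental genes, and in many tumours antigen presentation genes, silent. The luminal cells of the mammary gland, from which HER2-amplified tumours are thought to arise, secrete milk proteins in lactation and die in large numbers when milk stasis triggers involution, a process that depends on STAT3.

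Levels are normalized read counts, meaning reads divided by the authors' size factor of the library. They are not divided by gene length, so they were compared between libraries and not between genes. Changes are differences of log2(normalized read count + 1) with their standard errors, and a gene was called higher or lower when the Benjamini-Hochberg adjusted p of limma's moderated test was under 0.05. A level written with ± is a mean and SD over 3 libraries, and a log2 change with ± carries its standard error. Where the values of both groups follow each other unnamed, those with DMSO come first, each in the order of libraries 1 to 3. For genes with 1 to 3 reads over the DMSO libraries, the ratio of reads, combination to DMSO, is given with its 95% counting interval in brackets. The level of a gene in a bulk library cannot tell fewer cells of a type apart from less RNA per cell.

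The 6 libraries differed in ways other than treatment. Reads assigned to genes, in units of 1e6, numbered 25.4, 26.8 and 26.2 with DMSO and 17.7, 29.3 and 27.0 with the combination, so combination library 1 was the shallowest of the 12. Its reads nevertheless covered 21669 genes, where the other 11 libraries ranged from 15059 to 17338. Of genes with 1 to 3 reads summed over the other libraries, 89.0% had a read in combination library 1, and at most 10.6% did in any other. Reads from the synthetic spike-in RNAs made up 0.745%, 0.588% and 0.663% of the DMSO libraries and 1.72%, 1.68% and 1.35% of the combination libraries, and the labels do not say how they were added. Scaling the libraries to the spike-in total moved the median change of all tested genes from 0.06 to -0.94 on the log2 scale, so a direction given here is relative to the bulk of the genes, and a value after spike-in scaling is to be read against -0.94. Summed levels of 9 endothelial marker genes were 929 to 1324 with DMSO and 1901 to 2075 with the combination, with CDH5 as the highest, and of the 4 tested 1 was called higher (CDH5) and 1 lower (VWF). Sums of 16 immune cell markers were 396 to 481 and 1200.4 to 1452, with CD68 as the highest, while 8 of the 16 stayed under 10 in all 6 libraries and 6 had no read in any DMSO library. In combination libraries 2 and 3, 4 of the 16 had no read. Of the 5 tested, 2 were called higher (CD68 and CSF1R) and none lower, and neither of the 2 was called with spike-in scaling. Sums of 11 fibroblast markers overlapped, at 332 to 478 and 302 to 411, although of the 5 tested 1 was called higher (ACTA2, 1.54 ± 0.25) and 2 lower (COL1A1 and COL1A2). Sums of the 10 genes that mark SKBR3 (ERBB2, its neighbours on the amplicon and luminal genes) also overlapped, at 702380 to 887903 and 563761 to 784563. Whether these differences contribute to any result given here was not tested.

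Of 14179 genes tested, 3114 (22.0%) were called higher with the combination than with DMSO and 2856 (20.1%) lower, while 8209 were not called. Each count of list members called against DMSO below is to be read beside these shares of all genes. The counts leave out members too low to test, and a member near 0 with DMSO was tested only if high in treated libraries. Of members in the deposited table, 8 of 14 class II, 8 of 18 epidermal, 17 of 26 chemokine and 6 of 10 EGF-family ligand genes were tested. The change was at least 2-fold for 1995 of the higher and 1250 of the lower genes. Without combination library 1 the calls were 2419 higher and 2161 lower, of which 2408 and 2119 were among those first called. With spike-in scaling 599 genes were called higher and 4111 lower. For the gene lists below, higher genes that lost the call with spike-in scaling are counted or named with their list, while every lower gene of a list was also called lower with it. This scaling moved the median change to -0.94, and calls were still made against 0. Lower calls were therefore favoured and higher calls disfavoured, so a kept lower call is not a separate check. Of the genes called, 3065 higher and 2827 lower had no overlap between the 3 libraries of each group, against 8092 of all 14179 tested. A group of 322 genes was called higher from a level under 5 in every DMSO library, and 267 of them were also called without combination library 1. A gene this low with DMSO was tested only if it reached 10 in 3 or more treated libraries. The filter therefore favoured increases among such genes, and their number is a description only. The plot of change against level shows that the largest fitted increases came from genes at low levels. ALOX5, of leukotriene synthesis, was among them, while C2orf48 and CLSPN were among the genes that fell most.

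**Figure D1:**
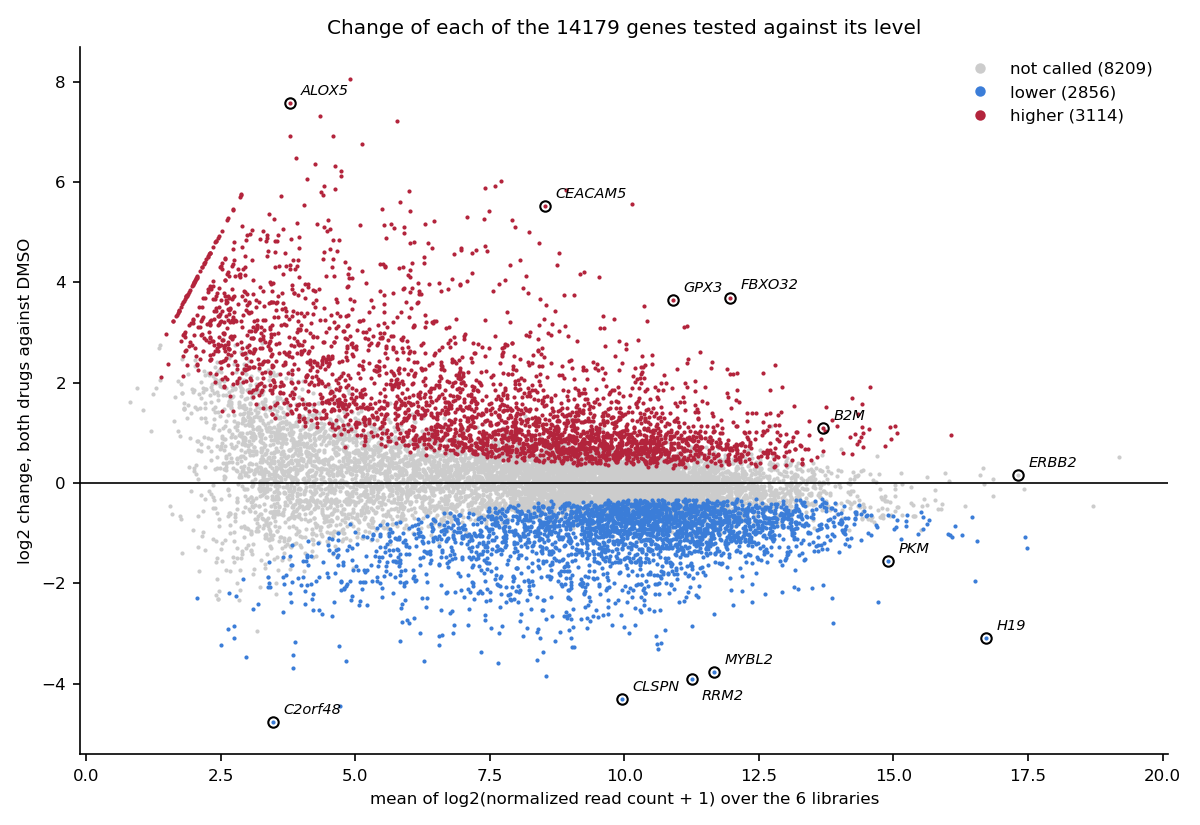
Each point is 1 of 14179 genes, with its mean log2(normalized read count + 1) over the 6 libraries on the horizontal axis and its log2 change with both drugs against DMSO on the vertical axis, coloured red for 3114 genes called higher, blue for 2856 called lower and grey for 8209 not called. ALOX5 sits near the top at a low level, and H19, at the right, is the most abundant of the labelled genes that fell.

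The DNA replication and mitosis programmes fell as a whole. All 38 tested genes of DNA replication and nucleotide synthesis were lower with the combination, with a median log2 change of -2.11, and so were all 36 genes of mitosis, spindle and kinetochore, with a median of -2.21, against 0.06 for all genes. These counts were the same without any single library of the 6. RRM2, the small subunit of ribonucleotide reductase, which makes deoxynucleotides, had 8572, 10295 and 9519 normalized counts with DMSO and 648, 646 and 580.2 with the combination. The means were 9462 ± 863 and 625 ± 38.8 (SD, n = 3), a log2 change of -3.92 ± 0.18, adjusted p = 2.14e-08 (limma). Every combination library was far below every DMSO library, and the mean with lapatinib alone was 632 ± 18.1.

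Other replication genes followed the same pattern. CLSPN, an adaptor of the replication checkpoint, went from 4487 ± 1155 to 225 ± 53.4 (-4.30 ± 0.35). The thymidylate synthase gene TYMS went from 4739 ± 122 to 511 ± 37.7 (-3.21 ± 0.17). GINS2, CDC45 and CDC6, which load or form the replicative helicase, changed by -3.54 ± 0.31, -3.27 ± 0.16 and -2.37 ± 0.13. Among mitotic genes MKI67, the gene of the Ki-67 proliferation antigen, had 8379, 7494 and 8266 with DMSO and 1283, 1344 and 1307 with the combination (-2.61 ± 0.16, adjusted p = 1.17e-07, limma). The groups did not overlap, and GSK126 alone left MKI67 at 9391 ± 2494. The kinetochore gene SPC25, the mitotic kinesin KIF2C, the cyclin CCNB2 and the ubiquitin-conjugating enzyme UBE2C changed by -3.60 ± 0.22, -2.43 ± 0.15, -2.10 ± 0.13 and -2.21 ± 0.11.

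Promoters of some of these genes are shown because the members moved together, and those shown were picked among promoters with a match. A pair of short elements was looked for in the 250 bases before each start site, on both strands: the CHR element TTTGAA, bound by the DREAM and MMB complexes, and the E2F core TTTGGCGC or TTTCCCGC. Sequences are from RefSeq on GRCh38.p14, read 5′ to 3′ on the strand of the gene, with motif letters in capitals, and no coordinate of the data was used, since the submitters' processing notes name hg19. MKI67 (chr10:128126424-128126543, minus strand) and CCNB2 (chr15:59105026-59105145, plus strand) hold CHR letters, and GINS2 (chr16:85688955-85689074, minus strand) holds the E2F core on the opposite strand.
MKI67: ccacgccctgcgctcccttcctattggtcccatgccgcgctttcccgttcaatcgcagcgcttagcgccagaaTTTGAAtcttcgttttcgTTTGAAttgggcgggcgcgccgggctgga
CCNB2: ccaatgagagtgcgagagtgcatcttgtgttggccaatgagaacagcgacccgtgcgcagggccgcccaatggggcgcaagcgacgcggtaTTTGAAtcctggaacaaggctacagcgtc
GINS2: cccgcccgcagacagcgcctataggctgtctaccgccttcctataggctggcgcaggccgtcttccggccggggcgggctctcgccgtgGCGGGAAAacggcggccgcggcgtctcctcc
A CHR was present in 19 of 31 mitosis genes with a promoter in the table (61.3%), against 13.3% of all 35116 promoters of the same length and 11.9% of the 11069 tested genes with a promoter. The E2F core was present in 13 of 34 replication genes (38.2%), against 1.93% of all promoters and 3.88% of those of tested genes. Among all genes called lower that had a promoter, 11.9% had a CHR and 6.26% the E2F core. Among those called higher, 13.6% and 2.65% did. A match to letters is a description and does not show that a factor binds there.

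The regulators of these programmes moved with them. Of 22 tested E2F, MYB and RB family factors and cell cycle kinases, 17 fell and 2 rose, with a median of -1.30. MYBL2, which activates mitotic genes, had 13505, 11255 and 11155 with DMSO and 875, 811 and 948 with the combination, without overlap (-3.77 ± 0.17, adjusted p = 2.14e-08, limma). E2F1, E2F2, FOXM1 and the phosphatase gene CDC25A changed by -2.82 ± 0.18, -3.38 ± 0.23, -3.04 ± 0.16 and -2.69 ± 0.14. The members that rose were the kinase gene CDK6, from 405 ± 63.8 to 1233 ± 102 (1.61 ± 0.17), and the RB family gene RBL2 (0.94 ± 0.26). The number higher was 1 without DMSO library 1, and neither gene was called with spike-in scaling. CDK6 was at 241 ± 9.80 with lapatinib alone and 1291 ± 269 with GSK126 alone. The members of a list that moved against its majority, here and in what follows, were picked after their values were seen.

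Of 13 genes of CDK inhibitors and quiescence, 8 rose and 2 fell, with a median of 0.80 (-0.21 with spike-in scaling, where 2 of the higher genes were called). CDKN1C, the gene of p57, had 14.7, 10.9 and 7.47 with DMSO and 136, 193 and 173 with the combination (3.83 ± 0.35, adjusted p = 3.27e-06, limma). CDKN2B, the gene of p15, went from 212 ± 55.1 to 1476 ± 157 (2.82 ± 0.23), and CCNG2, a cyclin of resting cells, from 488 ± 107 to 1853 ± 409 (1.92 ± 0.30, and 0.91 with spike-in scaling, adjusted p = 0.255, limma). CDKN1A, the gene of p21, changed by 0.99 ± 0.21 (-0.01 with spike-in scaling), while CDKN1B, the gene of p27, did not pass (log2 change 0.16 ± 0.18, adjusted p = 0.518, limma). The members that fell were CDKN2D (-2.31 ± 0.28) and CDKN2C (-0.70 ± 0.17), both of the INK4 family. In homologous recombination and DNA repair, 13 of 17 genes fell and none passed upward, with a median of -1.82. RAD54L, FANCI and the checkpoint kinase CHEK1 changed by -2.98 ± 0.18, -2.50 ± 0.20 and -2.53 ± 0.19.

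The levels of the drug targets themselves moved in different ways. EZH2, the enzyme that GSK126 blocks, had 1533, 1562 and 1553 with DMSO and 505, 583 and 569.6 with the combination, without overlap (-1.49 ± 0.13, adjusted p = 2.78e-06, limma). Its mean with GSK126 alone was 1383 ± 171, and with lapatinib alone 465 ± 28.1. EZH1, the related enzyme that is more abundant in resting cells, changed by 1.03 ± 0.19, and by 0.03 with spike-in scaling. The PRC2 subunit genes EED and SUZ12 changed by -0.80 ± 0.16 and -0.79 ± 0.23, with adjusted p = 0.00145 and 0.015 (limma), the latter 0.0684 without DMSO library 3 and 0.0595 without combination library 1. Of 13 PRC2 and demethylase genes, 4 rose (EZH1, AEBP2, PHF19 and KDM6B) and 4 fell (EZH2, EED, SUZ12 and RBBP7), and none of the higher genes was called with spike-in scaling. The counts were small and not stable, with 1 higher and 2 lower without combination library 1, and 2 higher without DMSO library 1 or combination library 2.

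ERBB2 had 143494, 166912 and 152454 normalized counts with DMSO and 151017, 185485 and 180505 with the combination, and the groups overlapped (0.16 ± 0.20, adjusted p = 0.561, limma). With lapatinib alone it was at 297566 ± 7690.1, and the combination was lower than that by a log2 change of -0.79 ± 0.20, adjusted p = 0.0141 (limma). ERBB3, the HER2 partner that couples to PI3K, changed by 0.84 ± 0.18 (-0.17 with spike-in scaling), and EGFR by 1.28 ± 0.34 (0.27 with spike-in scaling). Of 17 receptor tyrosine kinase genes, 7 rose, with a median of 0.74 (-0.26 with spike-in scaling, where none of them was called). The 3 that fell were FGFR4, from 2408 ± 264 to 544 ± 22.0 (-2.14 ± 0.15), EPHB6 (-2.03 ± 0.20) and MST1R (-0.82 ± 0.20). Of 6 EGF-family ligand genes, 3 rose. NRG2, a neuregulin, had 108, 69.2 and 80.0 with DMSO and 508, 535 and 627 with the combination, and EGF had 233, 327 and 334 and 787, 839 and 626, a call lost with spike-in scaling. TGFA had no read in any DMSO library and 39.8, 8.90 and 18.3 with the combination, at least 6.81-fold higher when each DMSO library is given 3 reads, and at least 4.15-fold without combination library 1.

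FOXO targets and insulin pathway genes rose as a group. Of 25 tested, 19 were higher and 2 lower, with a median of 1.24 (0.24 with spike-in scaling, where 3 of the higher genes were called). FBXO32, the ubiquitin ligase atrogin-1 and a FOXO target, had 1082, 1104 and 1131 with DMSO and 14716, 14637 and 13637 with the combination. The change was 3.69 ± 0.11, adjusted p = 3.99e-10 (limma), and every combination library exceeded every other library of the series, with means of 4829 ± 126 for lapatinib alone and 5019 ± 211 for GSK126 alone. The insulin receptor INSR went from 286 ± 23.7 to 1369.7 ± 139.6 (2.25 ± 0.17), the PI3K inhibitor PIK3IP1 from 527 ± 26.1 to 2600.1 ± 90.2 (2.30 ± 0.16), and TXNIP, which limits glucose uptake, from 1411 ± 197 to 6894 ± 479.8 (2.30 ± 0.18). The calls of these 3 genes were lost with spike-in scaling. The genes that fell were TRIB2 (-0.81 ± 0.23) and KLF6 (-0.73 ± 0.27), and the number lower was 1 without DMSO library 1 or 3 or combination library 1 or 2.

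ERK output genes moved less uniformly. Of 20 tested, 5 rose, 3 fell and the median was 0.10, near that of all genes, and -0.88 with spike-in scaling. DUSP6, a phosphatase induced by ERK, had 28.2, 18.8 and 18.1 with DMSO and 29.9, 18.6 and 20.2 with the combination (0.07 ± 0.37, adjusted p = 0.891, limma). The groups overlapped, and the mean with lapatinib alone was 14.2 ± 3.12, from which the combination differed by 0.65 ± 0.37, adjusted p = 0.283 (limma), which did not pass. The genes that fell were DUSP4 (-1.12 ± 0.16), ETV4 (-1.09 ± 0.28) and the cyclin gene CCND1, with 10158, 8816 and 9236 and 4580.1, 4358 and 4988 (-1.02 ± 0.15). Those that rose were PHLDA1 (1.69 ± 0.38), FOS (2.06 ± 0.39), EPHA4, SPRY1 and EGR1. The number higher was 3 without combination library 1 or 2, and none of the 5 was called with spike-in scaling. MYC did not pass (log2 change 0.12 ± 0.41, adjusted p = 0.832, limma). Against lapatinib alone, 12 of the 20 genes were higher with the combination and 1 lower, where 11.5% and 6.35% of all genes were called (1637 and 900). The 900 lower calls came to 455, 467 and 538 without lapatinib libraries 1, 2 and 3, and to 565 and 503 without combination libraries 1 and 2.

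**Figure D2:**
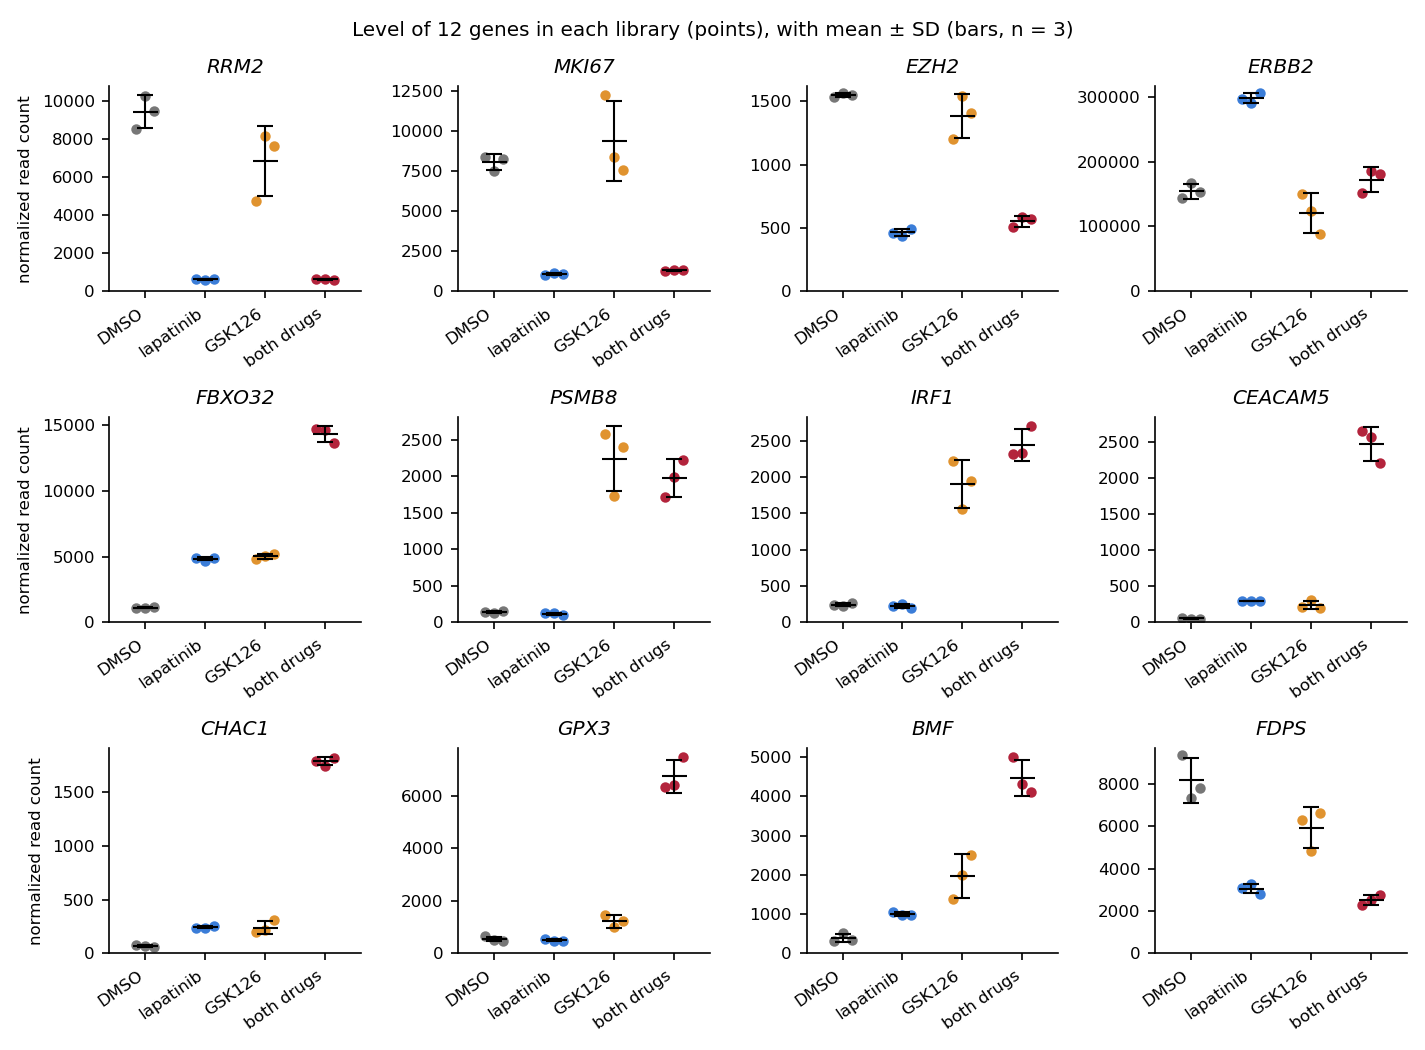
Normalized read counts of 12 genes in each library (points) of the 4 treatment groups, with bars at the mean ± SD (n = 3) and axes that start at 0. RRM2, MKI67, EZH2 and FDPS are low with the combination, ERBB2 overlaps DMSO, and FBXO32, PSMB8, IRF1, CEACAM5, CHAC1, GPX3 and BMF are above every DMSO library.

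Most antigen presentation genes rose. Of 21 tested MHC class I and peptide loading genes, 16 were higher and none lower, with a median of 1.85 (0.86 with spike-in scaling, where 7 of the higher genes were called). PSMB8, a subunit of the immunoproteasome that cuts peptides for display, had 145, 133 and 161 with DMSO and 1711, 1988 and 2224 with the combination. The change was 3.74 ± 0.19, adjusted p = 2.71e-08 (limma), with no overlap, and the mean was 116 ± 17.3 with lapatinib alone and 2239 ± 445 with GSK126 alone. TAP1, which pumps peptides into the endoplasmic reticulum, had 594, 604 and 587 and 2556, 2730.1 and 2723 (2.16 ± 0.14, adjusted p = 2.09e-07, limma), and B2M, the light chain of all class I molecules, went from 9116 ± 489.6 to 19349 ± 920.2 (1.09 ± 0.18). The calls of TAP1 and B2M were lost with spike-in scaling, at 1.16 and 0.08. The class I heavy chains are near-identical in places, so reads may have been shared among them. With that limit, HLA-B went from 126 ± 33.1 to 916 ± 142 (2.87 ± 0.24), and HLA-C from 129 ± 4.83 to 771 ± 101 (2.56 ± 0.22).

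Against lapatinib alone, 16 of the 21 class I genes were higher, where 11.5% of all genes were called. Against GSK126 alone 1 was higher and 1 lower, where 8.48% and 9.71% of all genes were called (1202 and 1377). Those totals were 538 and 823 without combination library 2, 630 and 864 without combination library 1, and 2244 and 2167 without GSK126 library 2, and the higher calls came to 769 without combination library 3. Of 8 tested class II genes, 5 were higher and none lower, with a median of 2.41, and 3 of the 5 were called with spike-in scaling. CTSS, the protease that trims the invariant chain, had 1.23, 0.988 and 6.40 with DMSO and 180.5, 202 and 176 with the combination (5.87 ± 0.51, adjusted p = 2.16e-06, limma, and 6.47 without DMSO library 3). HLA-DRA had 0, 0 and 4.27 and 21.2, 12.1 and 19.3, and HLA-DQB1 11.0, 18.8 and 23.5 and 231, 285 and 342. The other 2 higher genes were HLA-DOB (1.85 ± 0.62) and HLA-DQA1, with 0, 0.988 and 0 and 12.4, 5.66 and 9.64. The count was 3 without DMSO library 1, combination library 1 or combination library 3. Class II genes are also active in immune cells, whose marker sum, led by CD68, was higher in the same libraries, as given above. The labels name SKBR3 cells only, and which cells hold these transcripts was not tested.

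Most interferon response genes rose too. Of 46 tested genes of interferon response and nucleic acid sensing, 37 were higher and 2 lower, with a median of 2.83 (1.84 with spike-in scaling, where 25 of the higher genes were called). Among the 46 were 4 genes without a DMSO read, and the median was 2.40 with those at their bound. IRF1, a transcription factor that activates antigen presentation genes, had 243, 225 and 265 with DMSO and 2312, 2326 and 2702 with the combination (3.32 ± 0.16, adjusted p = 2.65e-08, limma). All combination libraries were above all DMSO libraries, and the means were 224 ± 30.4 with lapatinib and 1907 ± 332 with GSK126. PARP14, an ADP-ribosyltransferase, had 0, 3.95 and 1.07 and 235, 286 and 263 (6.91 ± 0.48, adjusted p = 3.39e-07, limma, and 7.51 without DMSO library 2). PARP9 and its partner DTX3L, which share a promoter region, changed by 5.93 ± 0.31 and 5.16 ± 0.27, and the antiviral synthetase OAS1 by 4.05 ± 0.26. HERC6, with 3 reads over the DMSO libraries, had a ratio of reads of 128 (43.4 to 621).

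The members of the interferon list that fell were USP18, which dampens interferon receptors, with 430.2, 407 and 342 and 123, 149.6 and 113 (-1.61 ± 0.19), and IRF3 (-1.05 ± 0.26). Against lapatinib alone 35 of the 46 genes were higher, where 11.5% of all genes were called. Against GSK126 alone 7 were higher and 1 lower, where 8.48% and 9.71% of all genes were called. The promoters of B2M (chr15:44711319-44711438, plus strand), TAP1 (chr6:32853772-32853891, minus strand), PARP14 (chr3:122680719-122680838, plus strand) and IRF1 (chr5:132490838-132490957, minus strand) are shown for the elements that interferon-activated factors bind: the ISRE core GAAANNGAA and the GAS core TTCNNNGAA. Build, windows and strands searched are as above, and capitals mark the matches. In the stretches shown, IRF1 holds a GAS core, PARP14 both elements, and B2M and TAP1 the ISRE core. Another TAP1 promoter (chr6:32852891-32853010, minus strand), not shown, holds a GAS core. The promoters shown were picked among those with a match.
B2M: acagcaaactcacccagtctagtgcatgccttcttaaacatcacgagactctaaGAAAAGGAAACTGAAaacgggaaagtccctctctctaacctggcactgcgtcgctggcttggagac
TAP1: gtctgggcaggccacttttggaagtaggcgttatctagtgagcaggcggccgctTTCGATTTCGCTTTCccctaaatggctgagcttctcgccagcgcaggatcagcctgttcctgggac
PARP14: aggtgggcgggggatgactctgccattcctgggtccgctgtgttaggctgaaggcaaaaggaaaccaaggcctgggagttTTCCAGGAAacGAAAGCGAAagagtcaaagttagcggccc
IRF1: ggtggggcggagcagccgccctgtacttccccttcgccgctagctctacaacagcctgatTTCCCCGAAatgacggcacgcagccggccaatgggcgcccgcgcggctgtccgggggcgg
An ISRE core was present in 7 of 17 class I genes with a promoter in the table (41.2%), against 6.88% of all 35116 promoters and 7.39% of the 11069 tested genes with a promoter. A GAS core was present in 2 of the 17, against 6.57% of all promoters and 7.55% of those of tested genes. Among all genes called higher that had a promoter, 9.24% had an ISRE core and 8.08% a GAS core. Among those called lower, 6.56% and 7.2% did. Fewer than 80% of the interferon genes had a promoter in the table (33 of 46). The same was true of all tested genes (78.1%) and of genes called higher (77.5%). Motif shares of these sets, here and above, therefore leave out the genes without a promoter. With that limit, 19 of the 33 interferon genes had an ISRE core (57.6%) and 10 a GAS core (30.3%).

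Defence genes of other families rose too. Of 14 APOL and TRIM genes, 8 were higher and none lower, with a median of 1.05 (0.05 with spike-in scaling, where 4 of them were called). TRIM31, a ubiquitin ligase, had 6.13, 1.98 and 3.20 with DMSO and 637, 618 and 729 with the combination (7.21 ± 0.38, adjusted p = 3.72e-08, limma). APOL1, an apolipoprotein of innate defence, had 0, 0 and 3.20 and 241, 220.0 and 315, a ratio of reads of 237 (81.0 to 1154). Of 17 chemokine, interleukin and TNF-family ligand genes, 12 rose and none fell, with a median of 1.98, and 5 of the 12 were called with spike-in scaling. TNFSF10, the death ligand TRAIL, had 2.45, 11.9 and 12.8 and 285, 282 and 349 (5.17 ± 0.47, adjusted p = 2.84e-06, limma, and 4.52 without DMSO library 1), above every other library of the series. CCL22, a chemokine for regulatory T cells, and CSF1, a growth factor of macrophages, changed by 2.93 ± 0.24 and 2.90 ± 0.28. Among 18 NF-kB genes 9 rose, with a median of 0.67 (-0.30 with spike-in scaling), and SOD2 alone fell (-0.91 ± 0.16). TNFAIP3 and NFKBIZ, feedback regulators, changed by 2.40 ± 0.36 and 1.96 ± 0.30, and CFLAR, an inhibitor of caspase 8, by 0.78 ± 0.13 (-0.23 with spike-in scaling). With spike-in scaling none of the 9 was called.

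Secretory and mucosal genes were among the strongest increases. Of 17 milk protein and mammary secretory genes, 12 rose, PLIN2 of the milk fat droplet fell (-1.50 ± 0.23), and the median was 2.23 (1.23 with spike-in scaling, where 7 of the higher genes were called). LCN2, a secreted iron carrier of mammary involution, had 6.13, 14.8 and 25.6 with DMSO and 446, 525 and 659 with the combination (5.22 ± 0.43, adjusted p = 1.38e-06, limma). STAT5A, the transcription factor of lactation, had 73.5, 40.5 and 39.5 and 637, 655 and 852 (3.83 ± 0.29, adjusted p = 6.55e-07, limma), without overlap. PIP and SCGB2A2, secreted proteins of breast epithelium, went from 26.8 ± 2.06 to 403 ± 34.5 and from 257 ± 17.6 to 2186 ± 184. Of 13 mucin and CEACAM adhesion genes, 9 rose and MUC5B fell (-0.95 ± 0.20), with a median of 2.91 (2.70 with a gene of no DMSO read at its bound, and 2.10 with spike-in scaling, where 8 of the higher genes were called). CEACAM5, the carcinoembryonic antigen, had 63.7, 52.4 and 44.8 and 2655, 2568 and 2211 (5.51 ± 0.19, adjusted p = 2.84e-09, limma), and its means were 297 ± 5.28 and 241 ± 58.9 with either drug alone. CEACAM6, a close relative that may share reads with it, changed by 3.13 ± 0.15, and MUC20 by 5.92 ± 0.37.

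STAT3 and involution genes were mixed, with 10 of 21 higher, TGFB3 lower (4721 ± 304 to 1687 ± 116, -1.48 ± 0.19) and a median of 0.40 (-0.61 with spike-in scaling, where 3 of the higher genes were called). BMF, a pro-apoptotic BH3-only gene of this list, had 319.9, 515 and 349 with DMSO and 4995, 4309 and 4101 with the combination (3.52 ± 0.22, adjusted p = 1.24e-07, limma). BMF was above every DMSO library, and above the means of 1003 ± 43.7 and 1963 ± 564 with single drugs. CEBPD, a STAT3 target, changed by 1.36 ± 0.15, a call lost with spike-in scaling. Of 8 epidermal differentiation genes, 5 rose: S100A7 (13.5 ± 8.26 to 345 ± 103), SPRR3, IVL, S100A8 and S100A9, with a median of 1.68. The calls of S100A8 and S100A9 were lost with spike-in scaling. The 1 that fell was TGM1 (-0.66 ± 0.14). SPRR3 had a ratio of reads of 41.8 (11.2 to 350.1). Of 16 keratin genes, 5 rose (KRT6B, KRT15, KRT16, KRT20 and KRT23) and 3 fell (KRT10, KRT17 and KRT19), with 1 lower gene without DMSO library 1 or combination library 1. The calls of KRT15 and KRT16 were lost with spike-in scaling. KRT23 had 31.9, 37.5 and 22.4 and 429, 532 and 492, and KRT20 had no DMSO read and 23.6, 17.0 and 18.3, at least 5.99-fold higher.

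Of 20 luminal identity factors, 3 rose and 7 fell, with a median of 0.07 (-0.94 with spike-in scaling). TFAP2A, a transcription factor of the luminal lineage, had 2816, 2684 and 2921 with DMSO and 1175, 1209 and 1231 with the combination, without overlap (-1.22 ± 0.12, adjusted p = 5.28e-06, limma). GATA3, a master regulator of luminal cells, did not pass (log2 change -0.60 ± 0.30, adjusted p = 0.126, limma). The genes that rose were EHF (2.53 ± 0.24), ELF3 (1.37 ± 0.17) and CREB3L1 (1.96 ± 0.23), and none of them was called with spike-in scaling. Of 15 mesenchymal, basal and stem-like genes, 8 rose, with a median of 1.81 (0.81 with spike-in scaling, where 5 of them were called). CD44, a hyaluronan receptor, had 46.6, 52.4 and 73.6 and 1360.3, 1273 and 1113 (4.44 ± 0.24, adjusted p = 4.21e-08, limma). ALDH1A1, an aldehyde dehydrogenase used as a stem-like marker, and NT5E, the ecto-enzyme CD73, changed by 4.73 ± 0.22 and 4.17 ± 0.28. VIM, the mesenchymal filament vimentin, had 167, 217 and 109.9 with DMSO and 213, 6.47 and 7.71 with the combination, so that combination library 1 lay within the DMSO range and the other 2 far below it. It was called lower in the full fit and without combination library 1, where another list member was also called lower, and not without any other single library of the 6.

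Of 81 developmental transcription factors listed as the type of gene that PRC2 silences, 35 were high enough to test. Of these 16 rose and 5 fell, with a median of 0.64 (-0.37 with spike-in scaling, where 7 of the higher genes were called). SOX9 had 174, 128 and 162 with DMSO and 1282, 1328 and 1160.4 with the combination (3.02 ± 0.18, adjusted p = 1.02e-07, limma), without overlap. KLF4 and FOXD1 changed by 2.78 ± 0.18 and 3.40 ± 0.31, and GATA2 by 1.48 ± 0.14, a call lost with spike-in scaling. The genes that fell were HOXC8, HOXC6, IRX5, IRX3 and PITX1, and the number lower was 2 to 3 without any one library other than combination library 3. Against lapatinib alone 14 of the 35 were higher and 3 lower, where 11.5% and 6.35% of all genes were called. Against GSK126 alone 2 were higher and 3 lower, where 8.48% and 9.71% of all genes were called.

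**Figure D3:**
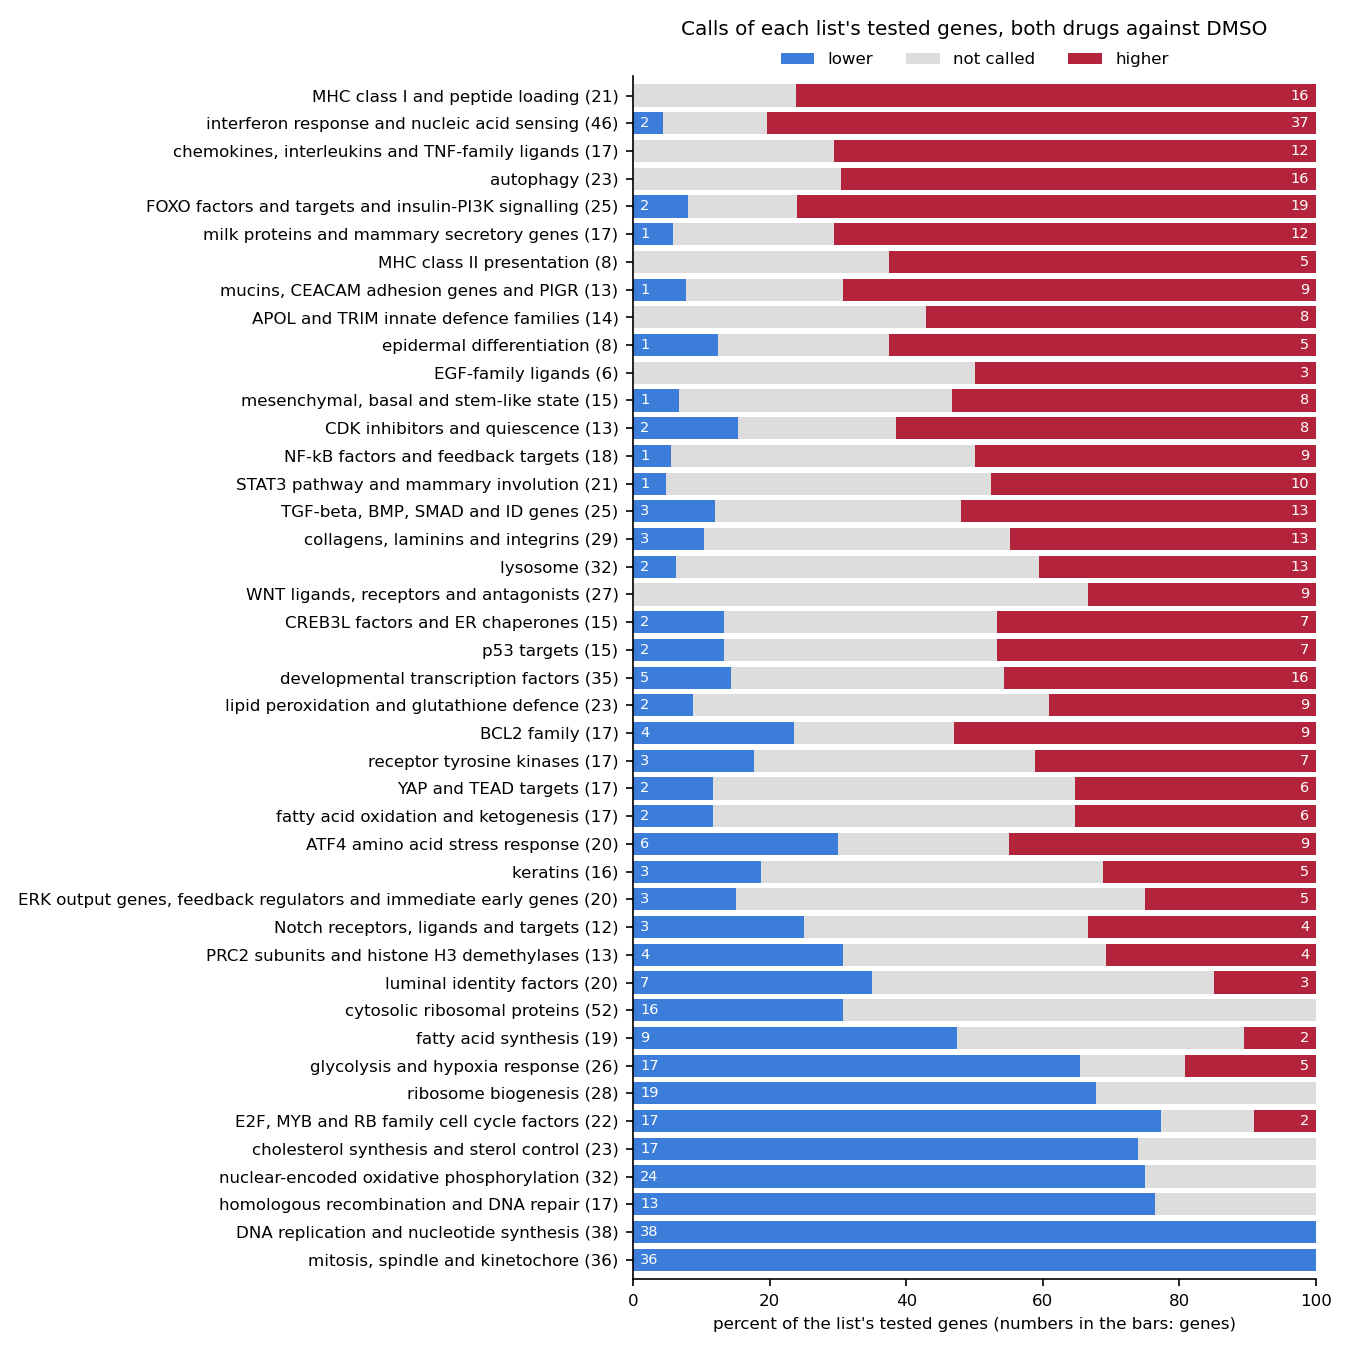
For each of 43 gene lists (number of tested genes in brackets), bars give the percent of tested genes called lower (blue), not called (grey) or called higher (red) with both drugs against DMSO, with the numbers of genes printed in the bars. All 36 mitosis and 38 DNA replication genes were lower, and 37 of 46 interferon and 16 of 21 MHC class I genes were higher.

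The BCL2 family moved in both directions. Of 17 tested, 9 rose and 4 fell, with a median of 0.52 (-0.49 with spike-in scaling, where 3 of the higher genes were called). Among the BH3-only genes, PMAIP1 (NOXA) had 12.3, 22.7 and 12.8 with DMSO and 117, 139 and 132 with the combination (2.99 ± 0.38, adjusted p = 5.02e-05, limma), and BBC3 (PUMA) changed by 1.35 ± 0.20, a call lost with spike-in scaling. The 4 that fell were the effectors BAX (-0.65 ± 0.22) and BAK1 (-0.77 ± 0.17) and the BH3-only genes BID (-0.89 ± 0.16) and BAD (-1.30 ± 0.32). Of 15 p53 targets, 7 rose and FDXR and AEN fell, with a median of 0.54 (-0.47 with spike-in scaling, where 1 of the higher genes was called). GDF15, a stress cytokine, went from 54.8 ± 7.82 to 523 ± 14.7 (3.24 ± 0.30).

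Genes of the amino acid stress response through ATF4 were split, with 9 higher and 6 lower of 20 and a median of 0.06 (-0.95 with spike-in scaling, where 2 of the higher genes were called). CHAC1, which degrades glutathione, had 76.0, 64.2 and 54.4 with DMSO and 1788, 1747 and 1821 with the combination (4.77 ± 0.19, adjusted p = 7.71e-09, limma). Its means were 242 ± 11.1 and 239.9 ± 60.3 with lapatinib and GSK126 alone, so it was above every other library. ATF3 and DDIT4 changed by 2.29 ± 0.20 and 1.39 ± 0.14, calls lost with spike-in scaling, and SHMT2, of mitochondrial folate metabolism, by -1.24 ± 0.13. Of 15 CREB3L and endoplasmic reticulum chaperone genes, 7 rose and SDF2L1 (-1.35 ± 0.36) and DNAJB11 (-0.54 ± 0.16) fell. The number higher dropped to 3, 3 and 4 without DMSO libraries 1, 2 and 3, and to 2 and 3 without combination libraries 1 and 2, and to 0 with spike-in scaling. The number lower was 1 without DMSO library 3 or combination library 1.

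Most cholesterol synthesis genes fell, while those of fatty acid synthesis moved both ways. Of 23 cholesterol synthesis and sterol control genes, 17 were lower and none higher, with a median of -0.86. FDPS, which makes farnesyl diphosphate on the way to sterols, had 9357, 7347 and 7836 with DMSO and 2290.1, 2531 and 2743 with the combination (-1.69 ± 0.15, adjusted p = 2.7e-06, limma), without overlap. INSIG1, which holds back sterol-responsive transcription, changed by -1.42 ± 0.13. Of 19 fatty acid synthesis genes, 9 fell and DGAT2 (1.86 ± 0.27) and AGPAT2 (1.16 ± 0.28), of triglyceride assembly, rose, while 8 were not called. Neither of the higher genes was called with spike-in scaling. FASN, the fatty acid synthase, had 81380.2, 122108 and 83153 and 48611, 50784 and 40168 (-1.02 ± 0.21, adjusted p = 0.00193, limma). The count of fatty acid genes that fell was 6 without combination library 1 or 2.

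Of 17 fatty acid oxidation and ketogenesis genes, 6 rose and CPT1C (-1.73 ± 0.26) and ECHS1 (-1.12 ± 0.26) fell, with a median of 0.21 (-0.80 with spike-in scaling, where 1 of the higher genes was called). PPARA, a transcription factor of fatty acid oxidation, changed by 1.35 ± 0.24, a call lost with spike-in scaling. Of 23 genes of lipid peroxidation and glutathione defence, 9 rose, with a median of 0.34 (-0.67 with spike-in scaling, where 2 of them were called). GPX3, the secreted glutathione peroxidase, had 651, 511 and 473 and 6347, 6420.4 and 7466 (3.64 ± 0.17, adjusted p = 2.14e-08, limma). ALOX5, which makes leukotrienes, had no DMSO read and 208, 207 and 159, at least 58.3-fold higher. The genes that fell were GPX4 (10495 ± 2441 to 3038 ± 701, -1.79 ± 0.25), which removes lipid peroxides from membranes, and NQO1 (-0.39 ± 0.15), and the number lower was 1 without DMSO library 1 or 3 or combination library 1 or 2.

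Most genes of glycolysis and of oxidative phosphorylation fell. Of 26 glycolysis and hypoxia genes, 17 were lower and 5 higher, with a median of -0.83. PKM, pyruvate kinase, had 56045, 50987 and 50473 with DMSO and 16779.6, 17234 and 19674 with the combination (-1.55 ± 0.14, adjusted p = 2.29e-06, limma). The genes that rose were PFKFB3 (2.30 ± 0.36), ADM (2.02 ± 0.25), CA12 (1.14 ± 0.11), HK2 (1.04 ± 0.23) and VEGFA (0.89 ± 0.30), and none of them was called with spike-in scaling. Of 32 nuclear-encoded oxidative phosphorylation genes, 24 fell and none rose, with medians of -0.99, -0.77 and -0.55 in the 3 combination libraries. The number lower was 17 without DMSO library 1 or combination library 1, and 18 without combination library 2. NDUFA9, SDHB and NDUFB3 changed by -1.02 ± 0.13, -0.99 ± 0.15 and -0.97 ± 0.14. Of 28 ribosome biogenesis genes, 19 fell and none rose, with a median of -0.76, among them BOP1 (-1.30 ± 0.23) and NOP16 (-1.26 ± 0.16). Of 52 cytosolic ribosomal protein genes, 16 fell, with library medians of -0.88, -0.61 and -0.22. That count was 3 without DMSO library 1, 8 without DMSO library 3, 4 and 5 without combination libraries 1 and 2, and 25 without combination library 3.

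Most autophagy genes rose, while 17 of 32 lysosome genes were not called. Of 23 autophagy genes, 16 were higher and none lower, with a median of 0.61 (-0.39 with spike-in scaling, where 3 of them were called). ATG9B, a lipid scramblase of forming autophagosomes, had 45.4, 36.6 and 33.1 with DMSO and 1689, 1270.0 and 1472 with the combination (5.23 ± 0.24, adjusted p = 2.14e-08, limma). C10orf10 (DEPP1), a FOXO target, went from 23.7 ± 9.99 to 558 ± 76.8 (4.56 ± 0.36), and the cargo receptor OPTN and GABARAPL1 changed by 2.30 ± 0.25 and 2.19 ± 0.14, the latter a call lost with spike-in scaling. Of 32 lysosome genes, 13 rose and GLA (-1.56 ± 0.14) and MCOLN1 (-0.52 ± 0.18) fell, and the number lower was 1 without any one library other than DMSO library 3. The number higher was 9 without DMSO library 1 or 3 or combination library 1 or 2. The median was 0.32 (-0.68 with spike-in scaling, where 1 of the higher genes was called).

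Matrix and developmental signalling genes rose more often than they fell. Of 29 collagen, laminin and integrin genes, 13 were higher and 3 lower, with a median of 0.62 (-0.34 with spike-in scaling, where 4 of the higher genes were called). The number higher was 9 without DMSO library 1 or combination library 1. LAMC1, a laminin chain, had 7.36, 38.5 and 13.9 with DMSO and 375, 438 and 265 with the combination (4.38 ± 0.45, adjusted p = 8.86e-06, limma, and 4.98 without DMSO library 2), and COL6A1 changed by 2.66 ± 0.20. The genes that fell were COL1A1 (-1.49 ± 0.29), COL4A5 (-0.91 ± 0.34) and COL1A2 (-2.42 ± 0.70, adjusted p = 0.0144, limma), and the number lower was 1 without combination library 2. COL1A2 was at -3.31 without combination library 1 and -1.69 without combination library 2 (adjusted p = 0.0683, limma), and did not pass in edgeR's quasi-likelihood test (adjusted p = 0.0597). Of 27 WNT ligand, receptor and antagonist genes, 9 rose and none fell, with a median of 0.66 (-0.35 with spike-in scaling, where 2 of them were called). WNT11 had no DMSO read and 33.6, 34.0 and 66.5, at least 13.6-fold higher, and AXIN2, a target and brake of WNT signalling, had a ratio of reads of 52.1 (17.5 to 255). Of 25 TGF-beta and BMP genes, 13 rose and TGFB3, TGFBR1 (-1.28 ± 0.22) and INHBB (-0.57 ± 0.12) fell, with 8 higher without DMSO library 1 and 5 of the higher genes called with spike-in scaling. TGFB2, a ligand of the family, went from 88.3 ± 17.6 to 510.0 ± 33.1 (2.53 ± 0.22).

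Of 12 Notch genes, 4 rose (the ligands DLL4 and JAG1 and the targets HES2 and HEY1) and 3 fell (the ligand JAG2 and the targets HES4 and NRARP), with a median of 0.27 (-0.74 with spike-in scaling, where the call of JAG1 was lost). DLL4 had 44.1, 7.91 and 23.5 with DMSO and 851, 879 and 793 with the combination (5.30 ± 0.47, adjusted p = 2.45e-06, limma, and 4.66 without DMSO library 2), and HES4 went from 3853 ± 987 to 941 ± 223. DLL4 is also active in endothelial cells, whose marker sum, led by CDH5, was higher, as given above. With SKBR3 cells alone named in the labels, which cells hold these transcripts was not tested. CDH5, the endothelial cadherin, went from 141 ± 36.5 to 906 ± 145 (2.69 ± 0.25), and VWF, the von Willebrand factor, changed by -1.25 ± 0.39, adjusted p = 0.0209 (limma). VWF did not pass without DMSO library 1 or 3 or combination library 2 (adjusted p = 0.0655, 0.0533 and 0.102, limma). ESAM and EGFL7, the other tested genes of the marker list, did not pass (log2 changes 0.29 ± 0.17 and 0.05 ± 0.32). Of 17 YAP and TEAD genes, 6 rose and TEAD1 (-0.51 ± 0.15) and TEAD4 (-1.00 ± 0.22) fell. The number lower was 1 without DMSO library 3 or combination library 3 and 3 without combination library 1, and 2 of the higher genes were called with spike-in scaling. CTGF, a secreted YAP target, changed by 2.17 ± 0.29, a call lost with spike-in scaling.

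**Figure D4:**
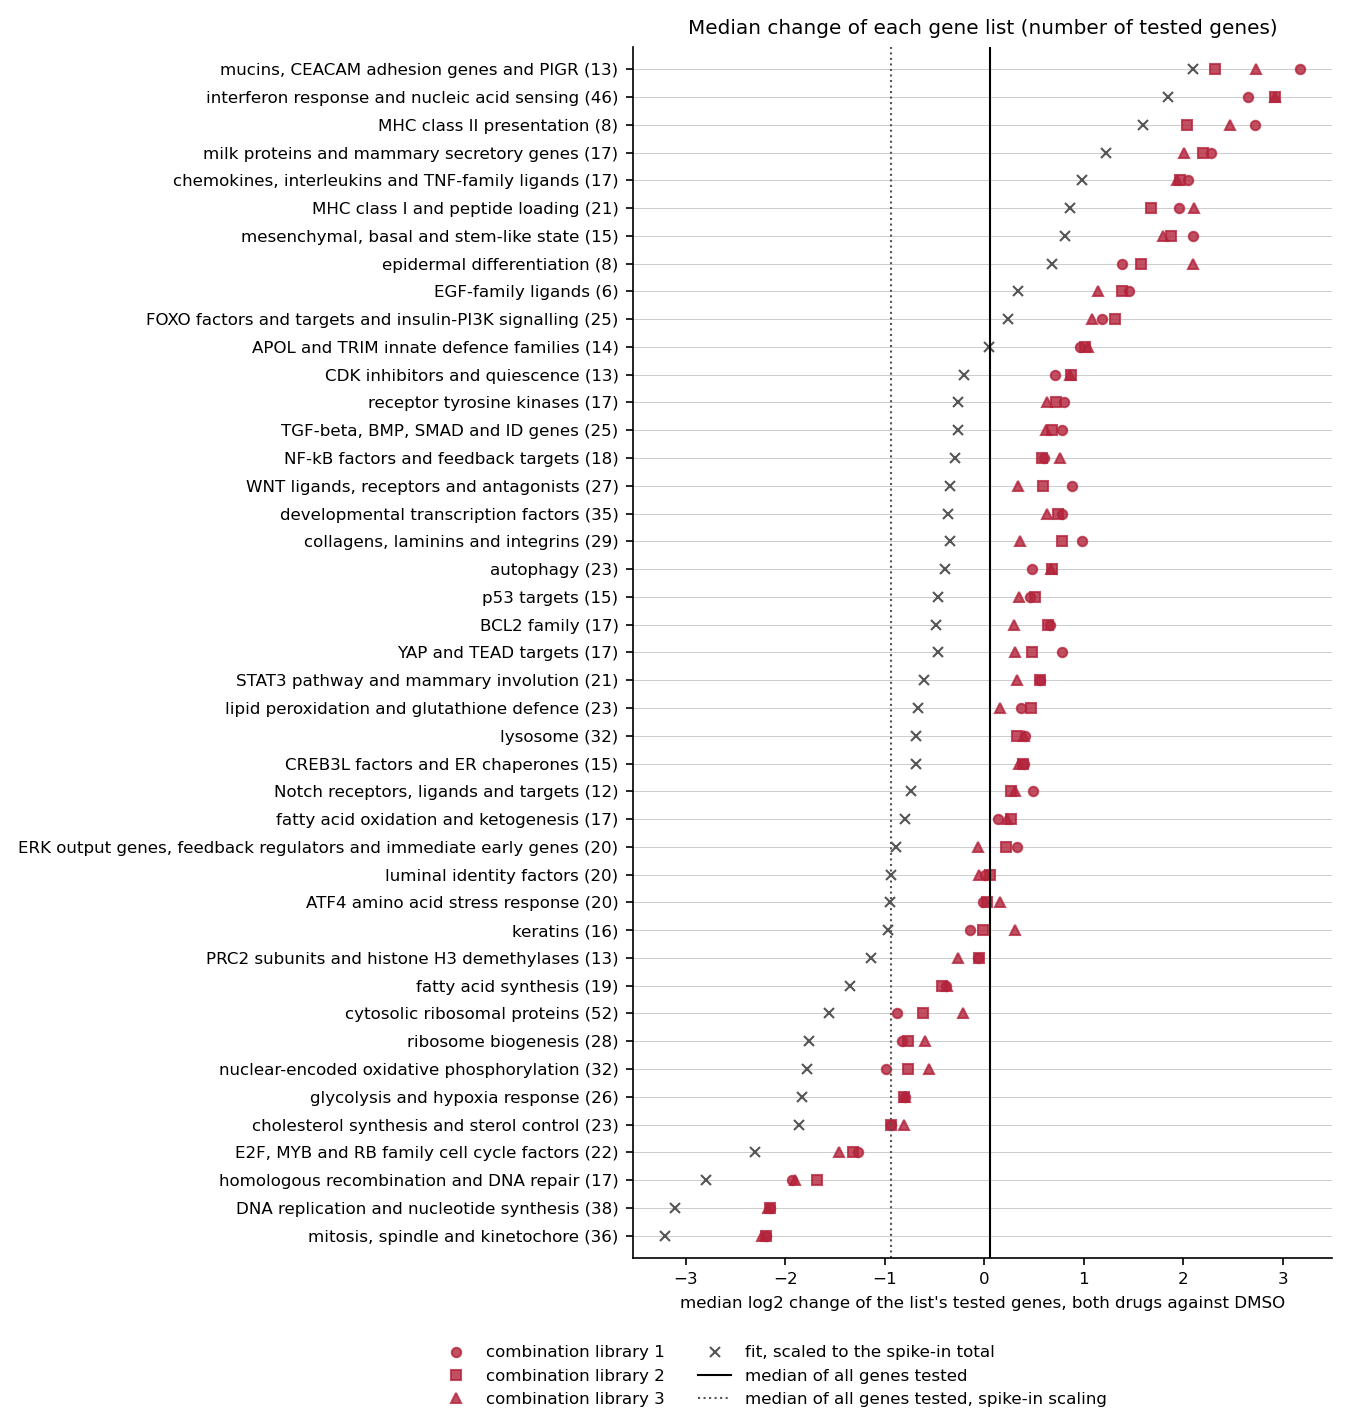
Median log2 change of the tested genes of 43 gene lists in each combination library against the mean of the DMSO libraries (red symbols), and in the fit after scaling to the spike-in total (crosses), with vertical lines at the medians of all genes, 0.06 and -0.94. By the fitted median, mucin, interferon and MHC class II lists lie farthest right and mitosis and DNA replication farthest left. In combination library 2 the milk list (2.20) lies to the right of MHC class II (2.04). With spike-in scaling 23 of all 47 lists change sign.

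Among the 12 largest increases that also passed without combination library 1, several belong to no list. RHBDL3, a rhomboid family protein, had 0, 0.988 and 0 with DMSO and 144, 164 and 144 with the combination, a ratio of reads of 420.5 (75.1 to 16643). TMEM176A, a membrane channel protein of antigen-presenting cells, had 0, 2.96 and 8.54 and 317, 365 and 415 (6.76 ± 0.61, adjusted p = 2.7e-06, limma), which came to 5.89 without DMSO library 1 and 7.52 without DMSO library 3. LMO2, a transcriptional adaptor of blood and endothelial progenitors, NPTXR, a neuronal pentraxin receptor, and SPINK5, a protease inhibitor of the epidermis, changed by 6.36 ± 0.48, 6.32 ± 0.60 and 6.22 ± 0.72. All 3 came from low DMSO levels, of 1.48 ± 1.62, 1.78 ± 0.485 and 3.04 ± 2.97, and SPINK5 came to 5.41 without DMSO library 1 and 6.81 without DMSO library 2. The 12 largest decreases included DPF1, a chromatin remodelling subunit, from 122 ± 22.7 to 5.37 ± 3.57 (-4.45 ± 0.54), STC1, a secreted glycoprotein, from 53.2 ± 21.7 to 6.62 ± 9.44 (-3.70 ± 0.81), and the DNA glycosylase NEIL3 (-3.56 ± 0.48). STC1 was at -4.80 without combination library 1 and -2.70 without combination library 3. TMPO-AS1 (-3.54 ± 0.73) is antisense to TMPO, and whether the counting used strand is not given in the sources used here, so its reads cannot be told apart from those of its partner. It was at -4.17 without combination library 1 and -2.51 without combination library 3. H19, an imprinted non-coding RNA named after its values were seen, had 386648, 344828 and 234356 with DMSO and 35457, 36136 and 39435 with the combination (-3.09 ± 0.21, adjusted p = 2.93e-07, limma), which was 1.24%, 1.30% and 0.839% of gene reads against 0.161%, 0.153% and 0.151%.

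A smaller set lay beyond every other treatment. With the combination, 281 genes (1.98%) were called higher than with DMSO, lapatinib and GSK126 each, and 168 (1.18%) lower than each, in comparisons that share the combination libraries. Without combination library 1 the same calls held for 159 and 74 of them. With spike-in scaling 13 of all genes were called higher than with GSK126 and 80 lower than with lapatinib. No more than these could then lie beyond every other group. With only the groups compared in the fit, 354 and 590 genes were called higher and lower than with GSK126, in place of 1202 and 1377. SLC5A1, an intestinal glucose carrier, had no read in any DMSO or lapatinib library, 0, 3.83 and 3.54 with GSK126 and 63.5, 43.7 and 48.2 with the combination. It was at least 15.8-fold higher than with DMSO. TCHHL1 and SCEL, genes of epidermal differentiation, and CYP1A1, a xenobiotic oxidase, had means of 1315 ± 278, 152 ± 23.2 and 336 ± 28.2 with the combination. With DMSO these were 22.7 ± 10.4, 7.52 ± 3.69 and 11.0 ± 6.76. CEACAM5, CHAC1, TNFSF10 and KRT23, described above, complete the 8 with the widest margin.

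Of the 8 genes lowest relative to each other group, SLC16A10, an aromatic amino acid carrier, had 219, 210.5 and 192 with DMSO and 31.1, 25.1 and 20.2 with the combination (-2.99 ± 0.21, adjusted p = 4.2e-07, limma). With lapatinib its mean was 257 ± 27.4 and with GSK126 92.4 ± 12.7. APLP1, a relative of the amyloid precursor, went from 804 ± 123 to 95.4 ± 12.1, and KREMEN2, a receptor of DKK proteins, from 1430.2 ± 255 to 99.1 ± 25.9. MT1G, a metallothionein with close relatives that may share its reads, and HAAO, of tryptophan breakdown, changed by -2.78 ± 0.33 and -2.66 ± 0.39.

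**Figure D5:**
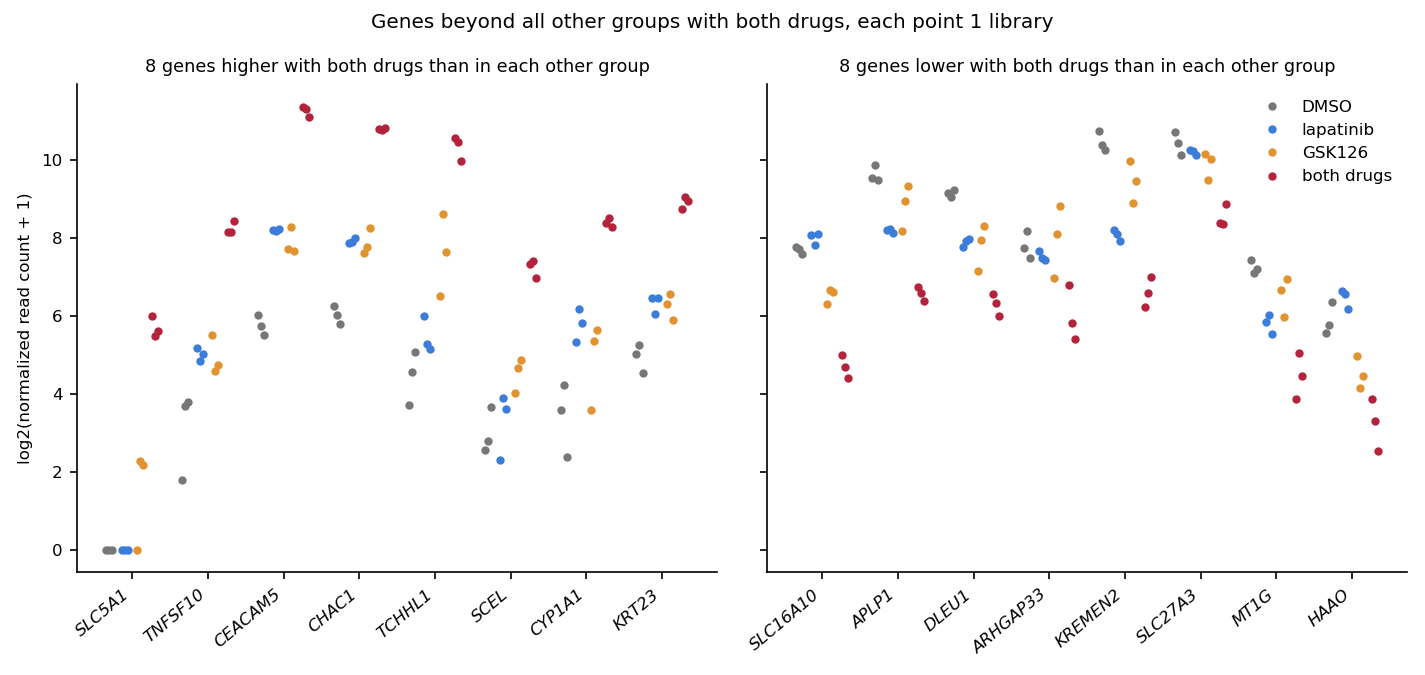
Level as log2(normalized read count + 1), 1 point for each of 12 libraries, of the 8 genes highest (left) and 8 lowest (right) with both drugs relative to each other group. For CHAC1 the 3 combination libraries lie at 1747 to 1821 normalized counts and the next library, with GSK126, at 308.

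Whether lapatinib changed a gene differently in the presence of GSK126 was tested as a difference of changes over all 12 libraries. Of 14179 genes, 2 (0.0141%) had a more positive and 1 (0.00705%) a more negative change with GSK126 present, and 836 had an unadjusted p under 0.05 (limma). GPX3 was at 545 ± 93.8 with DMSO, 495 ± 43.0 with lapatinib, 1222 ± 242 with GSK126 and 6744 ± 626 with the combination, a difference of 2.61 ± 0.24, adjusted p = 0.00138 (limma). DAPK2, a death-associated kinase named after its values were seen, had means of 62.0 ± 11.8, 23.5 ± 2.54, 115 ± 17.9 and 228 ± 32.9 in the same order (2.34 ± 0.33, adjusted p = 0.0466, limma). SLC16A10 had a difference of -2.13 ± 0.30, adjusted p = 0.0466 (limma). Over 22 alternatives, chosen after the data were seen, GPX3 passed in 21 and DAPK2 and SLC16A10 in 8 each. For GPX3, all combination libraries were above all libraries of the other 3 groups.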

How the data were processed

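RNA from 12 SKBR3 libraries, 3 for each of 4 treatments, was sequenced in 75-base reads. STAR, DESeq2 and the build hg19 are named in the submitters' processing notes, without roles or versions. The deposited table holds the authors' normalized signal, read counts per gene over one size factor per library. Every value in every library is a whole multiple of the value of 1 read (100% within 0.01), so whole reads were recovered for the depths in the report and the count tests. Of 22170 gene rows beside 86 spike-in rows, 27 have symbols turned into dates by a spreadsheet and are not named.

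The 14179 genes that reached 10 in 3 or more libraries entered limma (version 3.58.1, R 4.3.3), after taking log2 with a pseudocount of 1. All 12 libraries were fitted together, which left 8 residual degrees of freedom. The fit shares one spread per gene among the groups, which differed in it. The median SD of log2 values was 0.43 with GSK126, 0.24 with DMSO, 0.20 with the combination and 0.12 with lapatinib. The prior variance followed the trend with level, and p-values were adjusted over all tested genes by the Benjamini-Hochberg method. Replicate numbers were not used as a block. In 1 draw of simulated data (13213 genes), 67, 67 and 66 genes were changed 1.5-fold, 2-fold and 4-fold and the others left unchanged. The script found 2.99%, 35.8% and 90.9% of these changes, with 5 wrong calls in 91. An earlier draw found 2-fold changes more often, so the shares vary between draws. Far more genes were called in the data (3114 and 2856), and the scattered reads of combination library 1 were not simulated. The shares are therefore not the sensitivity or error rate of this comparison. Alternatives were other pseudocounts, filters, scalings, prior variance and libraries, a replicate block, and edgeR 4.0.16 and DESeq2 1.42.0 on the whole reads. The alternatives for the difference of changes were added after seeing the data.

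The members and the 47 gene lists were chosen with earlier results of these data known, so list counts are descriptions with no test. Named genes were the 12 largest increases and 12 largest decreases that also passed without combination library 1, did not overlap and averaged 50 or more in the group where they were high. To these were added, in each direction, the 8 most extreme relative to each other group, up to 4 genes per list ranked by adjusted p, and drug targets and textbook markers. A gene without a DMSO read was set to 3 reads in each DMSO library (3.28 normalized counts on average) to give a bound. Ratios of reads were divided by the size factors and have exact binomial 95% intervals. Intervals and bounds cover counting error only, since no molecular identifiers are named. Sequences came from RefSeq, GRCh38.p14. Some results are not reported here.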

Additional observations from a re-analysis of the deposited data

Results flagged for a closer look

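The difference of the lapatinib change with and without GSK126 passed the threshold in limma for 3 genes, and each is flagged because the 2 changes differed by that test. The difference was 2.61 on the log2 scale for GPX3, with means of 545 ± 93.8, 495 ± 43.0, 1222 ± 242 and 6744 ± 626 for DMSO, lapatinib, GSK126 and the combination. It was 2.34 for DAPK2 and -2.13 for SLC16A10. Over 22 alternatives, GPX3 passed in 21 (all but spike-in scaling), and DAPK2 and SLC16A10 in 8 each.

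The spike-in rows, which are not genes, took a larger share of reads in each combination library (1.72%, 1.68% and 1.35%) than in any DMSO library (0.588% to 0.745%).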

How the results depend on the processing

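With spike-in scaling the genes called higher numbered 599 against DMSO, 327 against lapatinib and 13 against GSK126, and those called lower 4111, 80 and 3044. Of 207 named genes called against DMSO, 153 kept the call under it, 48 lost it, and 6 changed sign: CFLAR to -0.23, HERPUD1 to -0.33, CREB3L2 to -0.073, PGAP3 to -0.43, ERBB3 to -0.17 and CDKN1A to -0.011. With only the groups compared in the fit, 2544 and 2433 genes were called higher and lower than with lapatinib, and 354 and 590 than with GSK126. Leaving out 1 library in turn gave 2395 to 2845 higher and 2161 to 2695 lower against DMSO, 1260 to 1381 higher and 455 (without lapatinib library 1) to 656 lower against lapatinib, and 538 to 2244 higher and 823 to 2167 lower against GSK126. The lowest values against GSK126 were without combination library 2 and the highest without GSK126 library 2. The cause of these shifts was not tested, beyond fewer libraries being fitted.

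Deviations of same-numbered DMSO and combination libraries from their group means had correlations of -0.19, 0.11 and -0.04. With means of 3 libraries these values cannot show whether the numbers pair libraries, which the labels do not say. With a replicate block 3029 genes were higher and 2752 lower than with DMSO, 1546 and 749 than with lapatinib, and 1062 and 1237 than with GSK126. Against DMSO, DESeq2 called 3350 higher and 3087 lower and edgeR 3136 and 2737. The difference of changes gave 0 to 66 genes more positive and 0 to 49 more negative over 22 alternatives added after seeing the data. Depth limits genes near 0 reads, where combination library 1 has scattered reads.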
